A study of Mus musculus with 6 samples.

Results

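The tight junction genes Cldn3, Cldn4, Cldn6, Cldn7, Ocln, Marveld2, F11r, Tjp1 and Cgn were followed in mouse embryonic stem cells in which the long noncoding RNA Panct1 had been depleted. All probe sets that the array annotation assigns to exactly 1 of these 9 genes were taken, which gave 15 of the 45037 probe sets tested, or 9 of 18193 genes. Of the 9 genes 4 had several probe sets and 5 had a single one. The genes were chosen by name with the difference between the Panct1 knockdown and control arrays already known, that is, selected on the same log2 signals as are given here. Their own differences are therefore a description, with no test.

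The cells used were Oct4-Gip, an embryonic stem cell line that carries a reporter under Oct4 regulatory sequences, kept in serum and LIF. Both groups were transfected with 800 ng of esiRNA, a pool of short interfering RNAs cut from a longer double strand, given to 60000 cells with a lipid reagent, and both were harvested at 72 h. The 3 Panct1 knockdown arrays came from cells given esiRNA against Panct1, and the 3 Luciferase control arrays from cells given esiRNA against a gene these cells lack. Values are RMA signals on the log2 scale, 1 for each probe set and array, and signals of different probe sets are not comparable as abundances. The labels do not say whether replicates were separate cultures, so the spread between arrays may be technical. No probe set was named as Panct1, so its depletion was not assessed here. In bulk RNA, fewer cells of a type and less RNA per cell cannot be told apart.

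Tight junctions seal the space between neighbouring epithelial cells and separate the apical from the basolateral membrane. Claudins are membrane proteins that polymerise into the strands of the junction and set which ions pass. Occludin and tricellulin, of the MARVEL family, and the adhesion molecule JAM-A sit beside them, and cytoplasmic scaffolds such as ZO-1 and cingulin tie the strands to actin. In the preimplantation embryo, tight junctions form in the trophectoderm, the outer epithelium of the blastocyst, where they hold the fluid of the cavity.

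The stem cell label was checked against 8 markers of these cells, Pou5f1, Nanog, Sox2, Zfp42, Esrrb, Utf1, Tdgf1 and Dppa5a. Their mean signals over the 6 arrays ran from 10.45 to 14.62, all above the upper quartile of every array (8.19 to 8.26). Correlations over probe sets were 0.997 to 0.998 within a group and 0.991 to 0.993 between groups, and the array medians lay between 6.07 and 6.09.

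All 4 claudins were brighter in every knockdown array than in any control array, with Cldn7 furthest apart. The same held for the brightest probe set of all 9 genes (18.7% of all 18193 genes had knockdown above control in this way). Cldn7 encodes a claudin that binds EpCAM and lies along the lateral membrane of many epithelia. Its signal was 11.28, 11.50 and 11.54 on the knockdown arrays and 9.65, 9.63 and 9.73 on the control arrays. The lowest knockdown array thus lay 1.55 above the highest control array, and the mean difference was 1.77 (SE 0.08), or 3.41-fold.

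Cldn6, a claudin of early embryonic epithelia, stood at 10.81, 10.94 and 10.91 in knockdown and at 9.52, 9.61 and 9.58 in control. The groups were 1.20 apart at their nearest, and the means differed by 1.32 (SE 0.07), or 2.49-fold. Cldn4, a claudin that limits sodium passage in several epithelia, read 10.57, 10.49 and 10.38 in knockdown against 9.27, 9.27 and 9.19 in control. Its difference of 1.24 (SE 0.07) was 2.36-fold, with the control arrays within 0.08 of each other.

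Cldn3, a sealing claudin like Cldn4, has 4 probe sets. On the brightest, the knockdown arrays gave 8.23, 8.33 and 8.64 and the control arrays 7.70, 7.65 and 7.54, a difference of 0.77 (SE 0.11), or 1.70-fold. The other probe sets differed by 0.923, 0.853 and 0.85, so the brightest gave the smallest value. The sets at 0.923 and 0.853 are of a kind that can cross-hybridise. For each of the 4 sets all knockdown arrays lay above all control arrays. Knockdown replicate 3 was the highest array on every one of them.

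**Figure D1:**
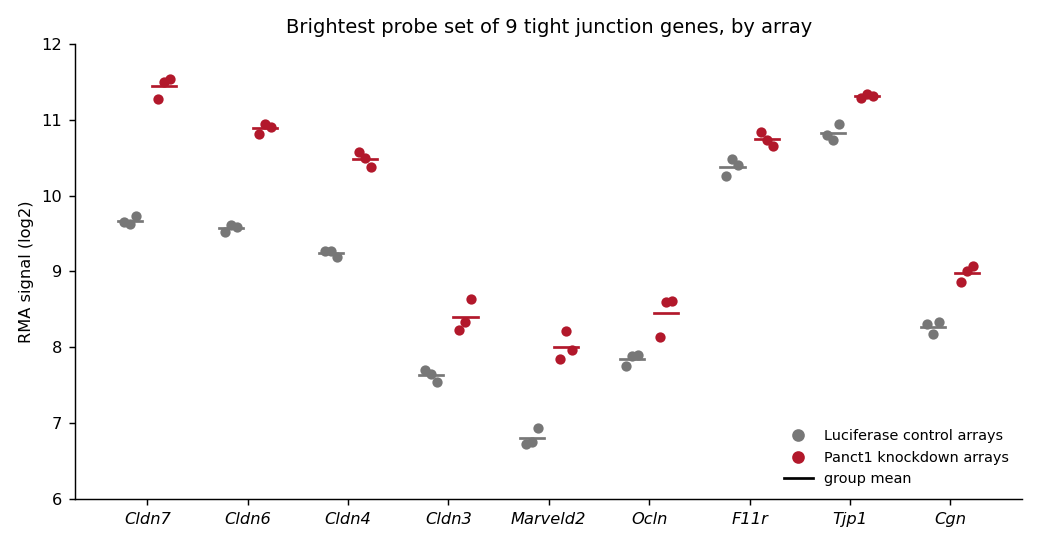
RMA signal (log2, vertical axis) of the brightest probe set of each of the 9 genes on the 3 Luciferase control arrays (grey) and the 3 Panct1 knockdown arrays (red), with a short line at each group mean. For each gene the 2 groups are separate, by 1.55 for Cldn7 and by 0.17 for F11r.

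The promoters of the 4 claudins are shown because factors of the Snail and ZEB families are known to repress claudins through an E-box. These genes were chosen with their rise known, so the rise they share is no sign of a shared site. Whether such factors act on them in these cells was not tested. All 9 genes matched the RefSeq promoter table of GRCm38.p6, with 12 start sites in all. Each stretch below is the 250 bases before the outermost start listed there, on the gene's strand, with the E-box CAGGTG, read on either strand, in capitals.
Cldn7, chr11:69964529-69964778, plus strand: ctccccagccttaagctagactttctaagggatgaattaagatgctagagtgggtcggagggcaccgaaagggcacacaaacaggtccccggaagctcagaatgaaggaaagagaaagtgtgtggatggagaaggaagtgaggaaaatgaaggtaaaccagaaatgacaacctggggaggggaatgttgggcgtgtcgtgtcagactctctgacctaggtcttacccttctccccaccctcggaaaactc
Cldn6, chr17:23679115-23679364, plus strand: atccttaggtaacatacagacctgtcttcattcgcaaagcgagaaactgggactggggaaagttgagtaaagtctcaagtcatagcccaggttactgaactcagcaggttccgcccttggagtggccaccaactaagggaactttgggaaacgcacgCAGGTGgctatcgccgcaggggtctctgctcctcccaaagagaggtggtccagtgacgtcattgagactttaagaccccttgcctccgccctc
Cldn4, chr5:134946935-134947184, minus strand: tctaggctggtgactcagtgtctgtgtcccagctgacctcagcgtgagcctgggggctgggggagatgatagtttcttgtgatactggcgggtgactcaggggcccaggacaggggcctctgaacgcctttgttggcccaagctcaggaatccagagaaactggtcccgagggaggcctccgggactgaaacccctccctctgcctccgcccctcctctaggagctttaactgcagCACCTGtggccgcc
Cldn3, chr5:134985964-134986213, plus strand: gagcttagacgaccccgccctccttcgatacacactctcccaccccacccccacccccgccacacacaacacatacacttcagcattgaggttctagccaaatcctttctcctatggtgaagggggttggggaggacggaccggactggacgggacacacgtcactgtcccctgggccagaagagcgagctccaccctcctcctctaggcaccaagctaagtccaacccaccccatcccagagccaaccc
The Cldn6 stretch holds 1 E-box, which begins 93 bases before the start, and the Cldn4 stretch holds 1, which begins 14 bases before it. The stretches for Cldn7 and Cldn3 hold none. Before a second listed start of Cldn7, further inside the gene, lie 2 E-boxes, 97 and 57 bases from that start, and the inner start of Ocln also has 2, at 213 and 68 bases. Of the outermost windows of the 9 genes 3 hold the E-box, those of Cldn4, Cldn6 and F11r. With inner starts included, 5 of their 12 windows hold it. Among all 32851 windows of this length, which also include inner starts, 17.2% hold it. The letters AACCNGTT, bound by Grainyhead-like factors, occur once among the outermost windows, in Cgn (1.79% of all windows). The letters GCCNNNGGC, bound by AP-2 factors, occur in 0 of the 9 outermost windows (13.7% of all windows), and once in each inner window of Ocln and Marveld2. Neither AACCNGTT nor GCCNNNGGC occurs in the 4 stretches shown. These matches describe the letters alone, and binding was not measured here.

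Occludin and tricellulin, the MARVEL proteins among the 9 genes, were also higher in knockdown. Marveld2 encodes tricellulin, which seals the points where 3 cells meet. Its signal was 7.84, 8.21 and 7.96 in knockdown and 6.73, 6.75 and 6.93 in control, a difference of 1.20 (SE 0.11), or 2.30-fold. The groups were 0.91 apart at their nearest.

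Ocln encodes occludin, the first membrane protein found in these junctions. On its brighter probe set the knockdown arrays gave 8.14, 8.60 and 8.61 and the control arrays 7.75, 7.89 and 7.90, so knockdown replicate 1 lay only 0.24 above the highest control. The difference was 0.60 (SE 0.13), or 1.52-fold. The dimmer probe set gave 6.95, 7.32 and 7.20 against 6.75, 6.57 and 6.71, a difference of 0.48 (SE 0.10). Replicate 1 was the lowest knockdown array on both sets.

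F11r encodes JAM-A, an immunoglobulin-like adhesion molecule that recruits polarity proteins to young junctions. Its brighter probe set read 10.84, 10.74 and 10.65 in knockdown and 10.26, 10.48 and 10.40 in control, a difference of 0.36 (SE 0.08), or 1.29-fold, the smallest of the 9 genes. Its other probe set, of a kind that can cross-hybridise, gave 6.67, 6.70 and 6.81 against 6.76, 6.70 and 6.70. The groups overlapped on that set and differed by 0.01 (SE 0.07). With the mean of both sets in place of the brighter one, the F11r difference was 0.185.

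Of the scaffolds, Tjp1 encodes ZO-1, which binds claudin tails and actin. It gave 11.29, 11.34 and 11.31 in knockdown and 10.80, 10.74 and 10.94 in control, with knockdown arrays within 0.05 of each other. The difference was 0.49 (SE 0.07), on a high signal. Cgn encodes cingulin, which links ZO-1 to myosin and to regulators of RhoA. Its brighter set gave 8.86, 9.01 and 9.07 against 8.31, 8.17 and 8.33, a difference of 0.71 (SE 0.08), or 1.64-fold. A dim second set, at 5.03 ± 0.25 in knockdown and 4.96 ± 0.16 in control (SD, n = 3), had overlapping groups. With the mean of both sets the Cgn difference was 0.39.

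**Figure D2:**
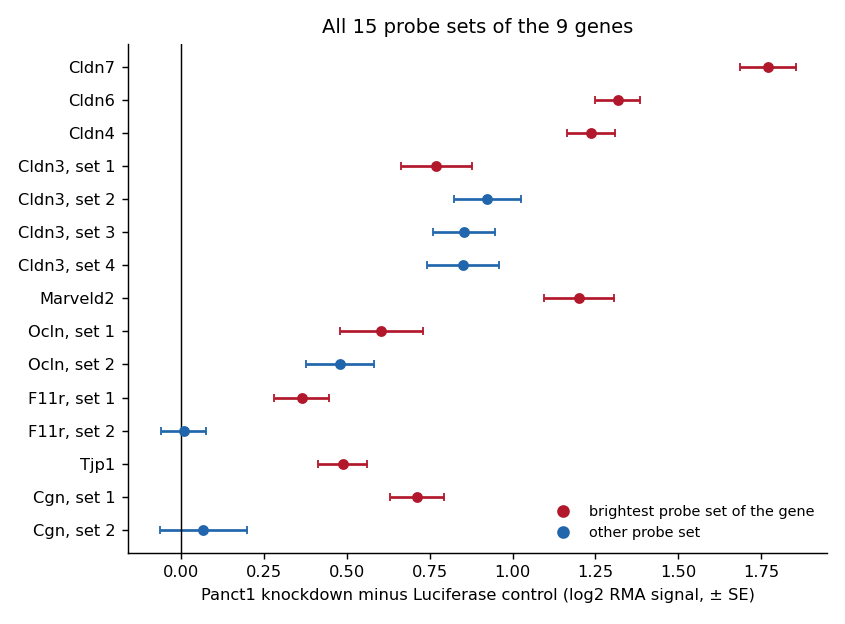
Difference between Panct1 knockdown and Luciferase control (log2 RMA signal, horizontal axis; bars are the SE from limma, 3 arrays per group) for all 15 probe sets, with the brightest set of each gene in red and the others in blue. Differences run from 0.01 for the dimmer F11r set to 1.77 for Cldn7, and the second sets of F11r and Cgn lie at 0.01 and 0.07.

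Over the 15 probe sets the median difference was 0.77, and over all probe sets it was -0.02. In limma's fit over all probe sets 13 of the 15 passed an adjusted p under 0.05 as higher and 0 as lower, while 7.82% of all probe sets passed as higher and 6.76% as lower. Nothing is read from this count, since the genes were chosen with this contrast known. The sets that did not pass were the dimmer ones of F11r and Cgn, and for the same 13 sets the groups did not overlap (14.2% of all probe sets had knockdown above control in this way). At 1 probe set per gene, the rank of the rise among 18193 genes was 47 for Cldn7, 107 for Cldn6, 129 for Cldn4 and 141 for Marveld2. It was 466 for Cldn3, 567 for Cgn, 801 for Ocln, 1105 for Tjp1 and 1666 for F11r. At least 2-fold differences were thus found for 3 claudins and tricellulin, as for 1.37% of all genes, and for neither scaffold. Knockdown replicate 1 was the lowest knockdown array for 7 of the 9 genes, the others being Cldn4 and F11r, for which it was the highest.

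The wider junction and its regulators were taken from lists written from textbook knowledge. They held 72 genes outside the 9, of which 51 were junction genes. At 1 probe set per gene 67 were measured, of which 47 were junction genes. Of the 67 genes, 22 rose and 9 fell by limma, adjusted over all genes, or 32.8% and 13.4%, beside 12.9% and 11.3% of all 18193 genes. Their median difference was 0.08, against -0.02 over all genes. The lists were chosen with earlier results of these data known, so these counts are a description. The lists differed among themselves, as the values below show.

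Among the other claudins most did not pass. Of 16 measured, 1 rose and 1 fell (all genes: 12.9% rose, 11.3% fell), and their median difference was 0.03. Cldn12, a claudin without the usual scaffold-binding tail, rose by 0.35 (SE 0.08; limma adjusted p = 0.0119) from 9.89 ± 0.14 (SD, n = 3) to 10.24 ± 0.02, and its second probe set rose by 0.33. Cldn15, a channel-forming claudin of the intestine, fell by 0.25 (limma adjusted p = 0.0198) from a dim 5.15 ± 0.05. That call did not hold without knockdown replicate 1 or 3 or control replicate 1 or 3 (adjusted p from 0.052 to 0.0789, with 0.0139 to 0.0789 over 13 settings). Apart from Cldn12, the other claudins had mean signals of at most 6.92, and 3 of them were under every array's lower quartile (4.65 to 4.70) in both groups. Cldn9, the neighbour of Cldn6 on its chromosome, had 2 probe sets that disagreed: the brighter differed by 0.10 without passing and the other rose by 0.85. Cldn9 was named with its values known.

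Other membrane proteins of the junction went both ways. Of 13 measured, 5 rose and 3 fell (all genes: 12.9% rose, 11.3% fell), with a median difference of 0.12. Marveld3, a further MARVEL protein, rose 1.91-fold from 7.76 ± 0.12 to 8.70 ± 0.16 (SD, n = 3; limma adjusted p = 1.96e-04), although 1 of its 3 probe sets differed by -0.08. Marveld1, of the same family and named with its values known, differed by -0.10 (adjusted p = 0.387), and 0 of its 4 probe sets passed. Cxadr, the coxsackievirus and adenovirus receptor, rose 1.78-fold (limma adjusted p = 4.86e-04), on 4 of 5 probe sets. Of the genes named with their values known, the polarity protein gene Crb3 rose by 0.64, Lsr, which encodes the tricellular protein angulin-1, by 0.38 and Jam3 by 0.32. Lsr passed on 1 of its 2 probe sets, and the other differed by 0.06. The call for Jam3 held without control replicate 2 but not without any other array (adjusted p from 0.0517 to 0.137; 0.0189 to 0.335 over 14 settings), and neither of its probe sets passed over all probe sets.

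The falls were in other immunoglobulin-like adhesion molecules. Jam2, which encodes JAM-B, fell by 0.82 (SE 0.07; limma adjusted p = 6.75e-05) from 10.81 ± 0.10 to 9.99 ± 0.02 (SD, n = 3), and all 5 of its probe sets fell, the furthest at -1.58. Clmp, a relative of Cxadr, fell by 0.76 (limma adjusted p = 1.82e-04) on both of its probe sets. Esam, an adhesion molecule of endothelium named with its values known, fell by 0.54. Of the measured JAM genes, F11r was thus higher in knockdown, Jam3 was 0.32 higher with the unstable call given above, and Jam2 fell.

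Of 18 measured plaque and polarity proteins 9 rose and 3 fell (all genes: 12.9% rose, 11.3% fell), with a median difference of 0.24. Patj, a many-PDZ scaffold of the Crumbs complex that binds ZO-3 and claudins, rose from 6.30 ± 0.05 to 8.12 ± 0.05 (SD, n = 3). Its difference of 1.82 (SE 0.06; limma adjusted p = 1.51e-06) was 3.53-fold, and 3 of its 4 probe sets passed. Mpdz, its paralogue, rose 1.88-fold (adjusted p = 3.97e-04), on 2 of 4 probe sets. Pard6g, a PAR6 polarity protein, rose by 0.48 (adjusted p = 5.58e-04), on 1 of 2 probe sets. Mpp5, the Pals1 scaffold that joins Crumbs to Patj and was named with its values known, rose by 0.82 with a wide spread (SE 0.20). The call for Mpp5 was lost without control replicate 1 or 3 (adjusted p = 0.0616 and 0.0624; 0.00426 to 0.0624 over 14 settings). Arhgef2, Prkcz and Magi3, also among the 9 that rose, lost their calls in at least 1 of the 14 settings. Their limma adjusted p reached 0.207, 0.0788 and 0.627.

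The other plaque genes gave smaller or opposite values. Arhgef18, an exchange factor for RhoA at the apical junction, fell by 0.65 (SE 0.08; limma adjusted p = 5.40e-04) from 10.06 ± 0.09 (SD, n = 3), on 2 of 4 probe sets. Pard6a fell by 0.41 and Cgnl1, the paralogue of cingulin, fell by 0.38 on 1 of 5 probe sets, both named with their values known. The kinase gene Prkci, also named afterwards, differed by -0.02 at a signal of 11.74 in knockdown. Tjp3, which encodes ZO-3 and was named with its values known, rose by 0.41.

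**Figure D3:**
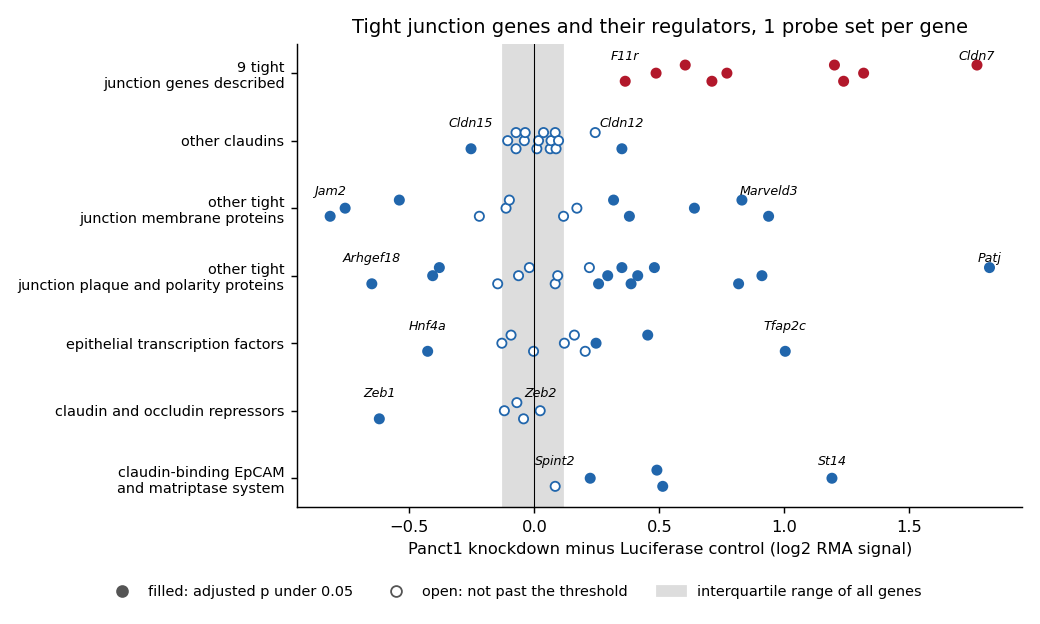
Difference between Panct1 knockdown and Luciferase control (log2 RMA signal, horizontal axis) at 1 probe set per gene for the 9 genes (red) and 6 lists of other tight junction genes and regulators (blue), with filled points past an adjusted p of 0.05 and the lowest and highest gene of each row named. The grey band is the interquartile range of all genes, and most other claudins lie in it.

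Proteins that act on claudins were examined next. EpCAM binds Cldn7 and shields it from degradation, and the membrane protease matriptase, encoded by St14, cleaves EpCAM. Of 5 measured genes of this system 4 rose and 0 fell (all genes: 12.9% rose, 11.3% fell). St14 rose 2.28-fold from 8.89 ± 0.12 to 10.08 ± 0.06 (SD, n = 3; limma adjusted p = 1.82e-05), Prss8, which encodes prostasin, rose 1.43-fold (adjusted p = 0.00817) and Epcam rose by 0.49 (adjusted p = 9.42e-04). Epcam passed on 1 of its 2 probe sets. Spint1, which encodes the matriptase inhibitor HAI-1, rose by 0.22 (limma adjusted p = 0.0475), which held without control replicate 3 but not without any other array (adjusted p from 0.0545 to 0.156; 0.0259 to 0.156 over 14 settings), also with median centring (0.0514), with quantile normalisation repeated (0.0502) and with the probe set of largest variance per gene (0.0729). Its single probe set did not pass over all probe sets.

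Epithelial transcription factors rose in 3 of 10 and fell in 1 (all genes: 12.9% rose, 11.3% fell). Tfap2c, an AP-2 factor of trophectoderm, rose 2.01-fold from 9.79 ± 0.12 to 10.79 ± 0.27 (SD, n = 3; limma adjusted p = 6.37e-04), and all 3 of its probe sets passed, by 0.98 to 1.00. Grhl3, a Grainyhead-like factor, rose by 0.45 (adjusted p = 0.0118) and Ovol2, which restrains mesenchymal genes, by 0.25 (adjusted p = 0.0306). The call for Ovol2 held without control replicate 2 but not without any other array (adjusted p from 0.0632 to 0.116; 0.0165 to 0.116 over 14 settings), and its single probe set did not pass over all probe sets. Hnf4a, a nuclear receptor of gut and liver epithelium, fell by 0.43 (adjusted p = 0.00769), on 2 of 4 probe sets. Grhl2, a known activator of claudin genes named with its values known, differed by -0.13 (limma adjusted p = 0.284).

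Of 5 genes for repressors of claudins and occludin 0 rose and 1 fell (all genes: 12.9% rose, 11.3% fell). Nothing is read from 1 fall among 5 genes. Zeb1 fell by 0.62 (SE 0.11; limma adjusted p = 0.00356) from 7.14 ± 0.06 to 6.52 ± 0.23 (SD, n = 3), on 1 of 4 probe sets. Twist1 was at 5.50 ± 0.21 in control and 5.38 ± 0.05 in knockdown and did not pass (adjusted p = 0.451). The brightest Zeb2 set, named with its values known, differed by 0.02 while a dimmer one fell by 0.46.

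Markers of other cells are given beside these results, and over all genes 12.9% rose and 11.3% fell. Of 9 trophectoderm markers 7 rose and 0 fell, Tfap2c among them, and the sum of their linear signals ran from 2916 to 3199 on control arrays and from 9772 to 11078 on knockdown arrays. On knockdown arrays this sum rests mostly on the sets of Krt8 and Krt18, which rose by 2.28 and 2.22 on the log2 scale. Krt7 rose by 1.93, Cdx2 by 0.77, Eomes by 0.49 and Gata3 by 0.77, and Hand1 differed by 0.10 without passing. Elf5, of the same list, was under every array's lower quartile in both groups, at 4.50 in control and 4.31 in knockdown. Of 8 stem cell markers 4 fell and 0 rose, with summed signals of 83176 to 85365 in control and 75965 to 77932 in knockdown. The falls were in Pou5f1 (-0.24), Utf1 (-0.20), Zfp42 (-0.42) and Esrrb (-0.50), and no probe set of Pou5f1 or Utf1 passed over all probe sets. Primitive endoderm markers rose in 1 of 6 and fell in 2 (441 to 479 against 448 to 510), and fibroblast markers rose in 2 of 7 and fell in 0 (438 to 457 against 462 to 491). Col3a1, a fibroblast marker that rose, had a control mean of 4.50, under every array's lower quartile. The part of any of these cell types in the differences of the tight junction genes was not tested.

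The genes whose profile lay nearest to the mean of the 4 claudins were found by Euclidean distance over the 6 arrays, with each gene centred on its control mean. These were Cnn1, which encodes calponin 1, an actin-binding protein, at a distance of 0.13, Cysltr1, a leukotriene receptor gene (0.14), Plekhg2, an exchange factor gene (0.15), Dsg2, which encodes a desmosomal cadherin (0.17), and Plin2, which encodes a lipid droplet protein (0.18). Cnn1 stood at 8.53, 8.66 and 8.75 in knockdown and 7.35, 7.32 and 7.26 in control. Dsg2 stood at 10.71, 10.89 and 10.94 against 9.65, 9.47 and 9.63. Cysltr1 had a control mean of 4.46, under every array's lower quartile. The differences of these 5 genes ran from 1.21 to 1.34, a size that the choice by distance fixes. The mean profile lies between Cldn3, at a difference of 0.77, and Cldn7, at 1.77. A gene near the mean is thus not near each of the 4 claudins.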

How the data were processed

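Total RNA of 6 samples was measured on Affymetrix Mouse430 version 2 arrays, 3 per group, grouped by their titles. The authors deposited log2 signals, made with GCOS 1.4 and RMA per the submitters' processing notes. RMA subtracts background, gives the arrays 1 common distribution and summarises the probes of a set; it can compress the differences of dim probe sets. The values were used as they stand; which arrays shared a normalisation is not given in the sources used here.

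Of 45101 rows 64 control sets were left out. Of the rest 34945 had 1 symbol in the platform annotation, 932 several and 9160 none listed. Of the sets with 1 symbol, 34741 were matched to RefSeq by gene ID and took the symbol given there. Group differences were fitted with limma 3.58.1 (lmFit, eBayes, R 4.3.3), two-sided, with Benjamini-Hochberg adjustment over all probe sets, or over 18193 genes at the probe set of highest mean. Calls needed an adjusted p under 0.05. The fit was tested on simulated data. Statements on 1 probe set of several use the adjustment over all probe sets. Members and lists were chosen with earlier results of these data known. Named genes are the members, the list genes past the threshold with the smallest p (at most 4 a list, the 2 smallest where fewer than 2 passed, and every one of the transcription factor and repressor lists), the 5 nearest profiles and the stem cell markers. Other genes, among them the named markers of other cells and the flanking genes, were named with their values known. The number of arrays limits the precision.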

Additional observations from a re-analysis of the deposited data

How the results depend on the processing

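The difference of each of the 9 genes kept its sign in the 16 alternatives, which is a description, since the genes were chosen with this contrast known. On leaving out 1 array, Cldn3 ranged from 0.65 to 0.86, Ocln from 0.52 to 0.76, Cldn7 from 1.72 to 1.85, Cldn6 from 1.29 to 1.35, Cldn4 from 1.19 to 1.29, Marveld2 from 1.10 to 1.28, Cgn from 0.66 to 0.77, Tjp1 from 0.44 to 0.54 and F11r from 0.30 to 0.41. With the mean of a gene's probe sets, the difference was 0.185 for F11r and 0.39 for Cgn. The count of member probe sets that were higher went from 13 to 10 with a 1.5-fold minimum and to 11 to 12 with 1 array left out. It was 11 with the probe sets of kinds that can cross-hybridise left out. With a 1.5-fold minimum, 8 of the other tight junction genes and regulators rose and 4 fell in place of 22 and 9, and over all probe sets 1375 rose and 711 fell in place of 3520 and 3045. On leaving out 1 array the lower calls over all probe sets ranged from 1901, without Luciferase control replicate 1, to 2501. The 1.5-fold minimum is left out of the next counts. Of the 31 listed genes that passed, 23 passed in every other alternative run for them and 8 lost the call in at least 1. These were Cldn15, Jam3, Arhgef2, Magi3, Mpp5, Prkcz, Ovol2 and Spint1, all with the same direction kept. Same-numbered arrays of the groups did not deviate together (correlations of -0.16, -0.30 and -0.15), so the numbers were not taken as pairs; with the replicate number as a block, the lower calls over all probe sets were 1965 and 5 of the 31 genes lost the call, Spint1 among them (adjusted p = 0.107). The causes were not tested.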

Other observations

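The nearest protein-coding genes on each side of the 9 genes, in RefSeq order, were looked at after the values were seen. Of 14 such genes outside the 9, 10 were measured, and 2 rose, 0 fell and 8 did not pass (limma, adjusted over all genes). Among all genes 12.9% rose and 11.3% fell. Tnfrsf12a, which encodes the receptor of the cytokine TWEAK and lies next to Cldn6, rose by 0.96 (adjusted p = 2.41e-04). The brighter probe set of Cldn9, on the other side, differed by 0.10 without passing, while its dimmer set rose by 0.85. Mettl27, next to Cldn4, rose by 0.31 (adjusted p = 0.0068), and Abhd11, next to Cldn3, differed by -0.04. Cldn3 and Cldn4 are themselves neighbours, as are Ocln and Marveld2, so these genes are not independent in position. Slc2a4 and Elp5, on either side of Cldn7, differed by -0.04 and 0.08 without passing.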
